A study of Mus musculus with 4 samples.

Results

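The peaks described here are accessible regions of the mouse genome whose detailed annotation is a CpG island and whose region class is not an annotated promoter. Of the 23595 consensus peaks of the study, 1494 met both criteria. A peak was counted as near when the centre of the peak lay within 1000 bp of an annotated transcription start site (TSS), which held for 953, and as far when it lay beyond, which held for 541. The assay was ATAC-seq, which measures open chromatin and in which the Tn5 transposase cuts and tags open DNA, in neutrophils flow sorted from mouse bone marrow and not cultured. The KO group was 2 libraries from Morrbid-deficient mice on a C57BL6 background, and the WT group was 2 libraries from wild-type cells, with 50000 cells of each genotype transposed in duplicate. Morrbid, on chromosome 2, is transcribed into a long non-coding RNA, and no CpG island peak of this kind lay within 1000 kb of its TSS. The labels do not say whether the duplicates came from separate animals, so p-values measure the spread between libraries, which may be technical. They also give no age or sex, and they do not describe how the deficient allele was made.

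The values are the signal that the authors deposited for each peak in each library. The deposited values do not establish the size of 1 read. If the common step between a library's values is taken as 1 read, the KO libraries held 6182922 and 7930547 reads in peaks and the WT libraries 3577922 and 3803711. The share of all sequenced reads that fell in peaks is not known. The median CpG island peak then held 234 and 293 reads in KO and 140 and 161.5 in WT. CpG island peaks took 9.55% to 9.96% of the reads in each library. Of 14 neutrophil markers, 10 had a peak at their promoter, with a summed signal of 4405 to 5070 per library, and Elane, Ly6g, Mmp9 and Mpo had none. No promoter peak was found for 6 B cell, 7 T and NK cell, 6 eosinophil and mast cell or 6 erythroid and megakaryocyte marker symbols. Of 6 monocyte and macrophage marker symbols, Csf1r and Ly6c2 had one, with a summed signal of 139 to 178. These are counts of symbols, since Adgre1 and Emr1 name the same gene, as do Siglecf and Siglec5.

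CpG islands are stretches of DNA that are rich in the CG dinucleotide and usually free of DNA methylation, and most of them lie at gene starts. Proteins with CXXC domains bind their unmethylated CG sites and bring enzymes that mark active chromatin, while Polycomb complexes occupy many islands of silent developmental genes. Islands away from annotated starts, called orphan islands, often act as unannotated promoters or enhancers.

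The sequences just upstream of a few gene starts show how far promoters next to these peaks differ in CG content. They are not the sequences of the peaks or of the annotated islands, which are not printed here. The peaks themselves are in mm9 coordinates, and the promoter sequences came from RefSeq on GRCm38.p6, so the start used for a sequence may differ from the one used for a distance. Each line gives the 200 bases before the RefSeq start, 5′ to 3′, on the plus strand, with CG dinucleotides in capitals. Klf11 (chr12:24651171-24651370) and Dstn (chr2:143915131-143915330) are shown because their near peaks rose in KO, Btg1 (chr10:96616801-96617000) because it carried the strongest peak, and Pprc1 (chr19:46056339-46056538) and Anp32e (chr3:95929057-95929256) because their near peaks fell.
Klf11: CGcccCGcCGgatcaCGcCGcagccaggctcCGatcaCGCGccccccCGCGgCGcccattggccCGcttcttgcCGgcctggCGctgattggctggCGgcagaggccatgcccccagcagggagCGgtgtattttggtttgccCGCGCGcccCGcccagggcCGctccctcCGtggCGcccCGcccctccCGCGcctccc
Dstn: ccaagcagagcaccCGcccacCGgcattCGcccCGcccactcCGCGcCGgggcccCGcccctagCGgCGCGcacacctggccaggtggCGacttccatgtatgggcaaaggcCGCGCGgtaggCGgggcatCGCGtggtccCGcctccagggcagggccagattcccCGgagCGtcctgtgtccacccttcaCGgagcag
Btg1: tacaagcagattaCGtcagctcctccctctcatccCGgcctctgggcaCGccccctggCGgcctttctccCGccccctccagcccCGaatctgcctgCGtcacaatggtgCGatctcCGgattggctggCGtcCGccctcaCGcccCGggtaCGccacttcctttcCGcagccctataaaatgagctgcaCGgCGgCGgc
Pprc1: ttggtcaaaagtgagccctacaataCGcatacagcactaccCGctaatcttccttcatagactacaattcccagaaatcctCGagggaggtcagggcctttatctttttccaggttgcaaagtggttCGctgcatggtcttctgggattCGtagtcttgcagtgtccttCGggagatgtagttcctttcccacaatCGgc
Anp32e: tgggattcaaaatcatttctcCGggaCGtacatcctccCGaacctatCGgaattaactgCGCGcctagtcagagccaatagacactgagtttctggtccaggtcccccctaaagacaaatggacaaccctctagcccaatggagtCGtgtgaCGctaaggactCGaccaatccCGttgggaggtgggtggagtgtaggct
The Klf11 run held 26 CG dinucleotides at 77.5% G and C, the Dstn run 22 at 73.5% and the Btg1 run 18 at 66.0%. The Pprc1 run held 7 at 48.5% and the Anp32e run 10 at 53.0%. A promoter sequence of 300 bases, from 250 before to 50 after the start, was found for 766 of the 952 genes with a near peak (80.5%). These promoters had a median of 22 CG dinucleotides and 61.6% G and C, against 7 and 52.7% over the 27025 genes of the table. The GC box GGGCGG, searched on both strands, was present in 77.2% of them and in 38.2% of all promoters. The ETS core CCGGAAG was present in 18.4% against 9.93%, the E-box CACGTG in 14.8% against 8.09%, TATAAA in 9.92% against 15.7% and CCAAT in 39.7% against 41.1%. The 4655 matched genes with an annotated promoter peak had a median of 23 CG dinucleotides and 62.0% G and C, with a GC box in 73.7%, the ETS core in 24.1%, the E-box in 13.1%, TATAAA in 7.2% and CCAAT in 45.7%. Set beside those promoters, the ones with a near peak therefore had the ETS core in a smaller share and the GC box in a slightly larger one. The printed runs do not stand for rising and falling peaks as groups. The median in 300 bases was 21.5 CG dinucleotides for near peaks that rose (59 matched genes) and 22 for those that fell (63). In the same order, the GC box was present in 88.1% and 73.0%, the ETS core in 27.1% and 15.9% and CCAAT in 45.8% and 33.3%. The E-box was present in 11.9% and 14.3% and TATAAA in 10.2% and 14.3%. These differences were not tested. Among runs not printed, that of Pdcl, whose near peak rose, held 8 at 34.0%. That of H3f3b, whose near peak fell, held 18 at 56.0%.

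Most near peaks were wide peaks that ran across the gene start with their centre just inside the gene. All 953 were intronic, 934 of them in intron 1, with the centre 101 to 988 bp downstream of the TSS and a median of 245 bp. The rule fixes this in part, since the promoter class is assigned by the position of the peak centre and the CpG island label replaced only the intron and intergenic labels. Judged by the deposited distances, 841 of the 953 (88.2%) covered the TSS itself and 112 did not. Their median width was 884 bp, against 785 bp for annotated promoter peaks, 573 bp for all peaks and 673 bp for far peaks.

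Far peaks were spread from 1001 to 337082 bp from the nearest TSS, with a median of 11733 bp and quartiles of 2896 and 30098 bp. Of these, 172 were intronic and 369 intergenic, with 303 upstream and 238 downstream of the nearest TSS. Of those downstream of the TSS, 147 were intronic. For 30.7% of the far peaks the nearest gene also had an annotated promoter peak, against 6.82% of the near peaks. The 1494 peaks belonged to 1415 genes by nearest TSS, which does not show which gene a peak acts on, and 1348 of these genes had a single such peak.

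**Figure D1:**
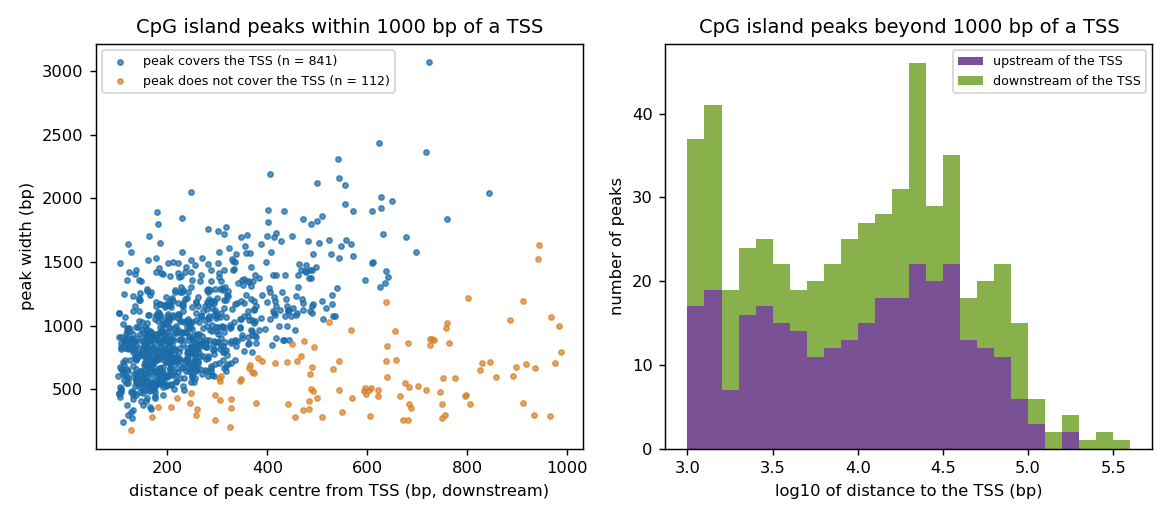
The left panel plots the width in bp of each of the 953 near CpG island peaks against the distance in bp of its centre downstream of the TSS, coloured by whether the peak covers the TSS. The right panel counts the 541 far peaks by the log10 of their distance in bp, stacked by side. The 112 near peaks that missed the TSS were narrower, with a median of 568 bp against 912 bp.

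CpG island peaks were stronger than most. The median of the mean signal over the 4 libraries was 247 for near peaks, 160 for far peaks, 235 for annotated promoter peaks and 123 for all peaks. Intronic and intergenic peaks beyond 1000 bp without an island had a median of 89.4. The median CpG island peak had a signal of 207 and 203 in KO and 205 and 225 in WT. WT replicate 2 was the highest of the 4 for near peaks (264, against 240 to 245 in the others) and for far peaks (170, against 150 to 160).

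With the signal as deposited, more CpG island peaks fell than rose between genotypes, whereas over all peaks more rose than fell. Both balances turned under other scalings or with a library left out, as given below. Of the 1494 peaks, 96 (6.43%) were higher and 130 (8.7%) lower in KO at an adjusted p below 0.05 in limma, and 1268 passed in neither direction. Over all 23595 peaks 6.08% were higher and 4.55% lower. The median log2 fold change, KO over WT, was -0.06 for CpG island peaks and -0.00189 for all peaks.

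Of the 953 near peaks, 73 (7.66%) were higher and 80 (8.39%) lower, with a median of -0.04. Of the 541 far peaks, 23 (4.25%) were higher and 50 (9.24%) lower, with a median of -0.12. The far intronic peaks had 10 higher and 21 lower (12.2%) and a median of -0.22, and the far intergenic peaks 13 higher and 29 lower and a median of -0.08. Annotated promoter peaks, by comparison, had 7.72% higher and 5.18% lower, and far intronic and intergenic peaks without an island 5.19% higher and 3.47% lower. Both KO libraries lay below both WT libraries at 35.4% of CpG island peaks, against 27.3% of all peaks, and above both at 24.1%, against 28.0%.

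Increases were small and decreases larger. The median log2 fold change was 0.37 among the 96 higher peaks and -0.77 among the 130 lower ones. None of the higher peaks reached 2-fold, and 25 of the lower ones did, 15 near and 10 far. The higher peaks were also the strong ones, with a median signal of 742 against 120 for the lower peaks. The same held over all peaks, where the medians were 0.49 among the 1434 higher and -0.80 among the 1074 lower peaks. Of these, 88 higher and 289 lower peaks reached 2-fold, and the median signals were 397 and 116. Near peaks that rose had a median width of 1188 bp and near peaks that fell 732 bp. None of the 73 near peaks that rose was narrower than 500 bp, against 19 of the 80 (23.8%) that fell.

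The balance of calls and the sign of the small overall median depended on how the libraries were scaled. With each library centred on its median, 167 CpG island peaks were higher and 86 lower, so that 66.0% of calls were increases in place of 42.5%, and the median log2 fold change was 0.0076. Over all peaks the counts were then 2248 and 777 (74.3% increases, in place of 57.2%). With equal totals the counts were 53 and 150 (26.1% increases), and with cyclic loess 22 and 101 (17.9%, against 47.6% over all peaks). All peaks then also had more decreases than increases, 1319 against 879 and 888 against 807. Without the mean-variance trend no CpG island peak was higher and 2 were lower in limma, while 64 were higher and 248 lower at an unadjusted p under 0.05. Leaving out KO replicate 1 left 17 higher and 25 lower, and leaving out KO replicate 2 left 14 and 21, while all peaks had 276 higher and 312 lower in the first case and 185 and 237 in the second. Without WT replicate 1 the counts were 154 and 289, and without WT replicate 2 they were 171 and 124, so the excess of decreases turned into an excess of increases there.

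**Figure D2:**
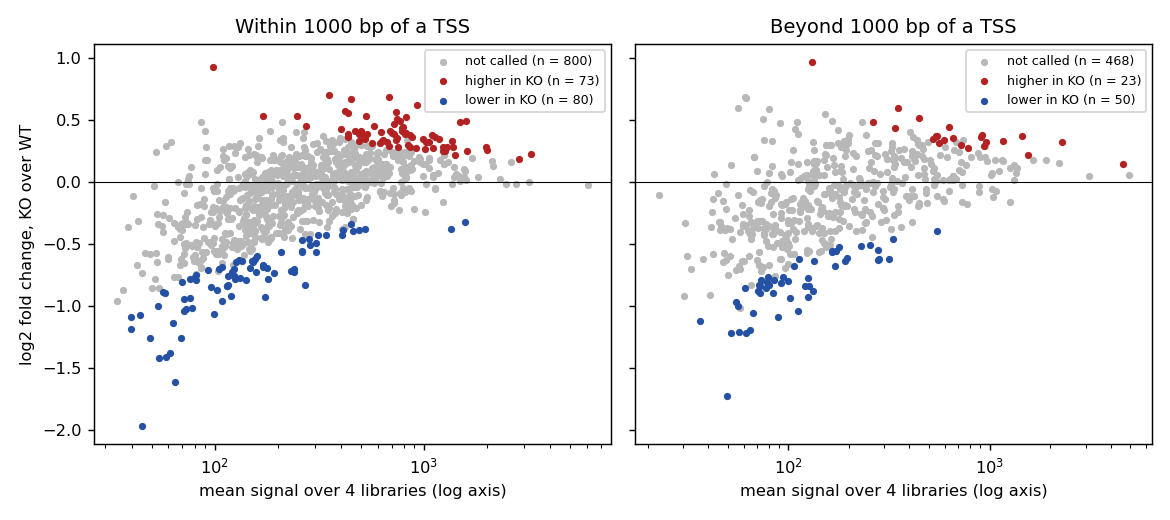
Each point is a CpG island peak, with the mean signal over the 4 libraries on a log axis and the log2 fold change of KO over WT on the vertical axis, near peaks in one panel and far peaks in the other. Called peaks are coloured by direction: 73 higher and 80 lower near, 23 higher and 50 lower far, with the increases among strong peaks and the decreases among weak ones.

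Weak CpG island peaks had a lower median log2 fold change than weak peaks as a whole, and strong ones had nearly the same median as all strong peaks. At a mean signal below 100, 52 of 294 CpG island peaks (17.7%) were lower and 1 higher, with a median log2 fold change of -0.42. Over all 9637 peaks of that strength 4.59% were lower and 1.65% higher, with a median of -0.08. The median rose with strength: -0.20 at 100 to 200, -0.01 at 200 to 400, 0.11 at 400 to 800 and 0.17 at 800 or more. Over all peaks the medians in the same ranges were -0.05, 0.04, 0.11 and 0.17. At 800 or more, 40 of 133 CpG island peaks (30.1%) were higher and 2 (1.5%) lower, close to the 32.7% and 1.3% of all peaks of that strength. With cyclic loess, which removes trends with strength, 4 of those 133 were higher and 12 lower and the median was -0.0056 (0.005 over all strong peaks), so the direction at strong peaks turned, while weak CpG island peaks kept a median of -0.33 against -0.0025 over all weak peaks. The 52 decreases at weak peaks were 21 with cyclic loess, 14 without KO replicate 1, 6 without KO replicate 2, 103 without WT replicate 1 and 2 without the mean-variance trend.

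The decrease at low signal was present near and far from a TSS. Among weak near peaks 27 of 131 (20.6%) were lower, with a median of -0.49, and among weak far peaks 25 of 163 (15.3%), with a median of -0.38. Weak peaks without an island had medians of -0.13 (near, intronic) and -0.03 (far), and weak annotated promoter peaks had a median of -0.29 with 7.89% lower. Weak annotated promoter peaks also differed by sequence. Those whose RefSeq promoter had an observed over expected CG ratio of 0.6 or more had a median of -0.35 (n = 516), and those with a ratio below 0.6 -0.18 (n = 296). Peaks without a matched promoter sequence were left out. At a signal of 100 to 200 the same medians were close, at -0.16 (n = 894) and -0.15 (n = 319).

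In the libraries themselves, the median signal of the 294 weak CpG island peaks was 61.8 and 59.6 in KO and 74.8 and 86.3 in WT. Both KO medians were below both WT medians, and the WT libraries differed from each other. Over all weak peaks the same medians were 61.8 and 60.3 in KO and 66.0 and 65.4 in WT. Both KO libraries lay below both WT libraries at 65.6% of weak CpG island peaks and at 31.6% of all weak peaks.

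Peak by peak, the median log2 difference between the WT libraries (replicate 1 minus replicate 2) was -0.23 at weak CpG island peaks and 0.01 at all weak peaks, and between the KO libraries it was 0.07 at weak CpG island peaks. The 4 differences of a KO library minus a WT library had medians from -0.56 to -0.34. The gap between the medians of weak CpG island peaks and of all weak peaks was -0.34, and it ran from -0.24 without WT replicate 2 to -0.47 without WT replicate 1 over the scalings and left-out libraries. Reads in peaks, by the step, were more numerous in both KO libraries, and WT replicate 2 stood above WT replicate 1 at these peaks. The part of either in the result was not tested.

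**Figure D3:**
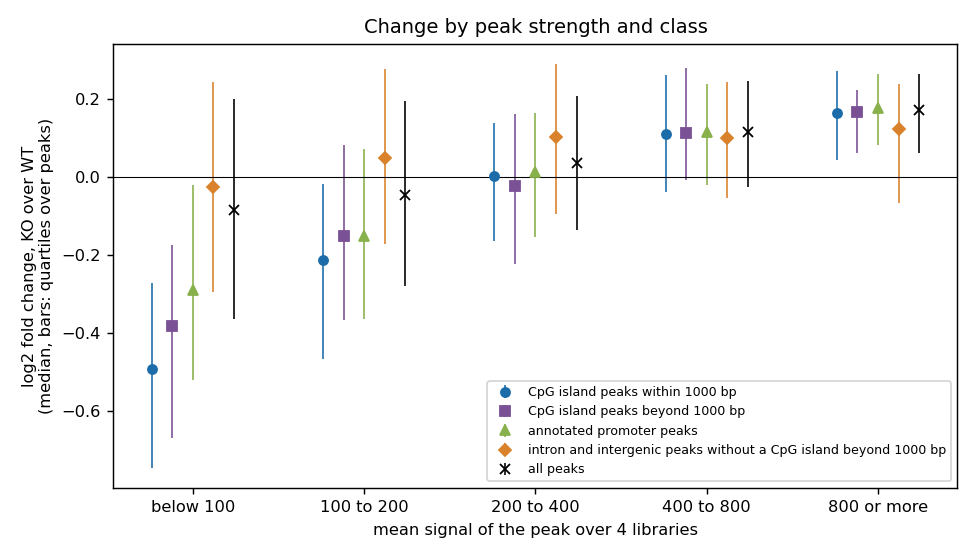
The median log2 fold change of KO over WT is plotted for 5 ranges of mean signal, with bars from the lower to the upper quartile over peaks, for near and far CpG island peaks and the comparison classes. The classes lie apart below a signal of 100, where CpG island peaks have a median of -0.42 and all peaks -0.08, and come together at 800 or more, where both are at 0.17.

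Near peaks that missed the gene start had a lower median than those that covered it. Of the 112 that did not reach the TSS, 3 were higher and 23 (20.5%) lower, with a median of -0.39. Of the 841 that covered it, 70 were higher and 57 (6.78%) lower, with a median of -0.01. The peaks that missed the TSS were also weaker, with a median signal of 92.2 against 276. Within a mean signal below 100 the medians were -0.58 (n = 60) and -0.45 (n = 71), and at 100 or more they were -0.26 (n = 52) and 0.02 (n = 770). The order held in each scaling and with each library left out, though the sign of the median for peaks of signal 100 or more that covered the TSS did not. The range of 100 or more does not match the classes in strength. The upper quartile of signal was 160 for peaks that missed the TSS and 496 for those that covered it. Over near peaks the median rose from -0.21 at 100 to 200 to 0.16 at 800 or more. The part of strength in the difference was not tested. By distance, peaks with a centre 501 to 1000 bp inside the gene had 17 of 109 (15.6%) lower and a median of -0.26. The share lower was 8.71% at 101 to 200 bp, 5.19% at 201 to 300 bp, 8.56% at 301 to 500 bp and 5.35% at 1001 to 5000 bp. The median signal at 501 to 1000 bp was 175, against 219, 271 and 340 in the nearer ranges.

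The 8 near increases of lowest p were peaks that covered the gene start, with signals from 260 in WT to 1935 in KO. Klf11 encodes a Krüppel-like zinc finger transcription factor, and its promoter run above was the richest in CG of those printed. The Klf11 peak (chr12:25335694-25337183, intron 1, centre 202 bp inside the gene) had a signal of 1728 and 1738 in KO and 1217 and 1262 in WT. The groups did not overlap, and the log2 fold change was 0.48 (SE 0.07, adjusted p = 5.99e-05). Dstn encodes destrin, an actin-depolymerising protein, and its peak (chr2:143740586-143742195, intron 1) had 1076 and 1156 in KO and 674 and 781 in WT. The Dstn libraries were again separate by genotype, with a log2 fold change of 0.62 (SE 0.09, adjusted p = 8.20e-05). Kansl1l, a relative of a subunit of the NSL histone acetyltransferase complex, had the lowest p. Its peak (chr1:66862611-66864728, intron 1) had 1935 and 1795 in KO and 1290.0 and 1353 in WT, a log2 fold change of 0.50 (SE 0.07, adjusted p = 4.59e-05).

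Asns encodes asparagine synthetase, an enzyme induced by amino acid shortage. Its peak (chr6:7642609-7643502, intron 1) had 423 and 450 in KO and 276 and 260 in WT, with both KO libraries above both WT libraries. The log2 fold change was 0.70 (SE 0.12, adjusted p = 0.000811), the largest of the 8 near increases of lowest p, and without KO replicate 2 the adjusted p was 0.0551. The other 4 were Ccdc9 (0.69), Pdcl, a phosducin-like chaperone of G protein assembly (0.67), Nipsnap3b (0.56) and Cndp2, a cytosolic dipeptidase (0.52). These 8 increases held in each of the 3 other scalings, at adjusted p between 2.30e-05 and 0.0112, and none passed without the mean-variance trend (0.119 to 0.155). The largest near increase was at Gm21586, named after its value was seen, with 136 and 121 in KO and 57.2 and 77.9 in WT (log2 fold change 0.93, adjusted p = 0.01). Gm21586 lies in a duplicated segment of chromosome 4, where reads can map to near-identical copies, so this value is uncertain.

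The near peaks with the clearest decreases were mostly weak. The largest was at Pprc1, which encodes a coactivator related to PGC-1 that acts on nuclear genes for mitochondria. The Pprc1 peak (chr19:46131199-46131452, intron 1) had a signal of 18.5 and 16.6 in KO and 64.6 and 79.3 in WT, which is 21 and 24 reads against 44 and 57 with 1 step as 1 read. Both KO libraries were far below both WT libraries, with a WT signal 4.09 times that of KO and a log2 fold change of -1.97 (SE 0.34, adjusted p = 0.000552). The peak was 255 bp wide, its centre lay 296 bp inside the gene, and it did not cover the TSS. It was one of the 2 CpG island peaks called without the mean-variance trend (adjusted p = 0.0422). Abcg1 encodes a transporter that moves cholesterol out of cells, and its peak (chr17:31194627-31194982, intron 1) had 37.1 and 26.3 in KO and 92.5 and 103 in WT. The genotypes did not overlap there either, and the log2 fold change was -1.61 (SE 0.28, adjusted p = 0.000716).

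At Anp32e the decrease was in a peak beside the promoter peak and not in the promoter peak. Anp32e encodes a chaperone that removes the histone variant H2A.Z from chromatin. Its intron 1 peak (chr3:95733790-95734083, centre 756 bp inside the gene) had 191 and 194 in KO and 299 and 392 in WT, a log2 fold change of -0.83 (SE 0.15, adjusted p = 0.0009). Its annotated promoter peak (chr3:95732870-95733479) had 502 and 529 in KO and 518 and 422 in WT, with overlapping groups, a log2 fold change of 0.14 and an adjusted p of 0.466. The difference between these peaks was not tested.

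H3f3b and Zfp36l2 were strong peaks that went against the rise of strong peaks. H3f3b encodes the histone variant H3.3, and its peak (chr11:115884934-115886126, intron 1) had 1163 and 1178 in KO and 1633 and 1410 in WT. Both WT libraries were higher, though they differed from each other, and the log2 fold change was -0.37 (SE 0.08, adjusted p = 0.00248). Zfp36l2 encodes an RNA-binding protein that speeds the decay of AU-rich mRNAs. It carried the widest CpG island peak, 3069 bp (chr17:84585030-84588097), with 1385 and 1410 in KO and 1730 and 1761 in WT. The Zfp36l2 groups were well apart, with a log2 fold change of -0.32 (SE 0.07, adjusted p = 0.00267), but the adjusted p was 0.0925 without KO replicate 1 and 0.0721 without KO replicate 2. The other near decreases of lowest p were at Eva1b (-1.38), Fbxl15, an F-box protein of ubiquitin ligases (-0.93), and Tubb6, a beta tubulin (-0.72, with an adjusted p of 0.0614 without KO replicate 1). All 8 near decreases were called in each of the 3 other scalings, and all but Pprc1 were lost without the trend.

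**Figure D4:**
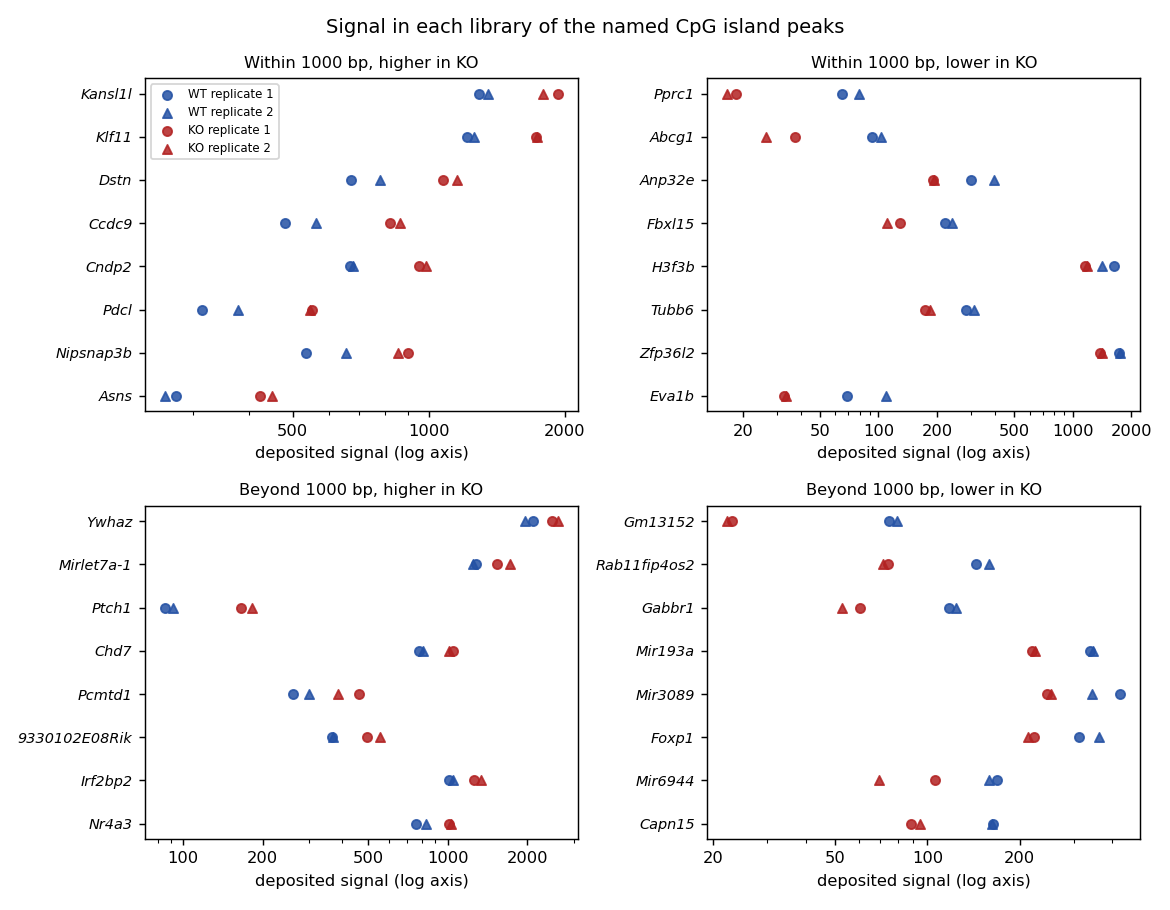
Points give the deposited signal, on a log axis, in each of the 2 KO and 2 WT libraries for the 8 increases and 8 decreases of lowest p among near and among far CpG island peaks. Red and blue points do not overlap at any of these peaks, as the choice requires, and the decreases sit at lower signal, such as Pprc1 at 16.6 to 79.3, than increases such as Klf11 at 1217 to 1738.

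Of the 8 far increases of lowest p, most lost the call when KO replicate 2 was left out. Ywhaz encodes the adaptor protein 14-3-3 zeta, and its peak (chr15:36722114-36724266, intron 1, 1103 bp inside the gene) had 2484 and 2620 in KO and 2107 and 1960 in WT. The groups did not overlap, and the log2 fold change was 0.33 (SE 0.06, adjusted p = 0.000861). Ptch1 encodes the Hedgehog receptor, and the peak 2603 bp upstream of it (chr13:63669102-63669761) had 166 and 182 in KO and 85.1 and 91.9 in WT. KO was close to 2-fold above WT there, a ratio of 1.97, with a log2 fold change of 0.97 (SE 0.19, adjusted p = 0.00224), the largest increase of any CpG island peak. Nr4a3 encodes an orphan nuclear receptor induced by cell activation, and the peak 8046 bp upstream of it (chr4:48055592-48056557) had 1014 and 1030 in KO and 760 and 827 in WT. Both KO libraries were higher, by 0.37 on the log2 scale (SE 0.08, adjusted p = 0.00663).

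The other far increases of lowest p were nearest Pcmtd1 (0.60, at 308989 bp from the TSS), 9330102E08Rik (0.52), Chd7, a chromatin remodeller (0.38), Mirlet7a-1, a let-7 microRNA gene (0.37), and Irf2bp2, a transcriptional corepressor (0.33). Of the 8, 4 kept the call without KO replicate 1 and 1, Pcmtd1, without KO replicate 2. Without KO replicate 1 the adjusted p was 0.061 for Irf2bp2, 0.114 for Nr4a3, 0.157 for Chd7 and 0.23 for Pcmtd1. Without KO replicate 2 it was 0.0861 for Ywhaz, 0.0953 for Chd7, 0.104 for Ptch1, 0.174 for Nr4a3, 0.188 for Mirlet7a-1, 0.238 for 9330102E08Rik and 0.257 for Irf2bp2. Cyclic loess ended 5 of the 8 calls (Chd7, Irf2bp2, Mirlet7a-1, Nr4a3 and Ywhaz), with adjusted p values of up to 0.2.

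Far peaks that fell had a median signal of 101, against 656 for far peaks that rose. The lowest p belonged to a peak nearest Gm13152 (chr4:146649385-146649565), with 23.0 and 22.2 in KO and 74.8 and 79.3 in WT. KO was far below WT in both libraries, with a log2 fold change of -1.73 (SE 0.31, adjusted p = 0.000861). Gm13152 lies in a cluster of near-identical zinc finger genes, where mapping can split reads between copies, so the value is uncertain. A pair of decreases lay close together on chromosome 11, nearest Rab11fip4os2 (chr11:79473906-79474507) and Mir193a (chr11:79517609-79518396). The Rab11fip4os2 peak had 74.2 and 71.4 in KO and 144 and 159 in WT, and the Mir193a peak 220 and 225 in KO and 340.5 and 347 in WT. Neither peak overlapped between genotypes, with log2 fold changes of -1.04 (SE 0.21, adjusted p = 0.00216) and -0.62 (SE 0.14, adjusted p = 0.00437). In the same 1 Mb of the chromosome 10 of 19 peaks of all classes were lower and none higher.

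Foxp1 encodes a forkhead transcription factor, and the peak 86920 bp upstream of it (chr6:99471196-99473323) had 223 and 213 in KO and 313 and 363 in WT. Both WT libraries were higher, with a log2 fold change of -0.63 (SE 0.14, adjusted p = 0.00553). The remaining far decreases of lowest p were nearest Gabbr1, a GABA B receptor subunit (-1.09), Mir6944 (-0.93), Capn15, a calpain family protease (-0.84), and Mir3089 (-0.62). In all, 32 far peaks lay nearest a microRNA gene, with 7 lower, 1 higher and a median of -0.14, against 50 lower and 23 higher of all 541 far peaks and their median of -0.12. The 8 decreases held in the 3 other scalings. Without KO replicate 1, 4 of them lost the call: Foxp1 (adjusted p = 0.0528), Mir3089 (0.0722), Mir193a (0.0819) and Capn15 (0.11). Without KO replicate 2, 6 did: Mir3089 (0.0558), Capn15 (0.0727), Mir193a (0.0729), Gabbr1 (0.083), Foxp1 (0.115) and Mir6944 (0.269). Without the trend Gm13152 alone of the 8 was called (0.0422).

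Of the 5 strongest CpG island peaks, 3 did not pass the test with the signal as deposited. Btg1, an anti-proliferative gene, carried the strongest (chr10:96079024-96081330, intron 1), with 5995 and 6039 in KO and 5992 and 6256 in WT. Those libraries overlapped, and the log2 fold change was -0.03 (SE 0.04, adjusted p = 0.724), with a sign that turned under median centring (0.042) and without WT replicate 2 (0.0059). With cyclic loess it was called lower (-0.28, adjusted p = 0.000109). Csf2ra, which encodes the alpha chain of the GM-CSF receptor, had 4971 and 5084 in KO and 5012 and 4657 in WT, with overlapping groups and a log2 fold change of 0.06 (SE 0.04, adjusted p = 0.43). With cyclic loess the Csf2ra value was -0.18 at an adjusted p of 0.0181. Ell2, an elongation factor for RNA polymerase II, had 3250 and 3135 in KO and 2940 and 3460 in WT, and WT spanned the KO values. Its adjusted p was 0.992, but with cyclic loess it was called lower (-0.22, adjusted p = 0.0245), as it was without WT replicate 1 (-0.12, adjusted p = 0.0447).

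Arrdc3, an arrestin domain protein, and Ypel5 were the members of the 5 strongest whose peaks rose. Arrdc3 had 4868 and 4824 in KO and 4481 and 4280 in WT, a log2 fold change of 0.15 (SE 0.04, adjusted p = 0.0297), and Ypel5 3508 and 3478 in KO and 2938 and 3047 in WT, a log2 fold change of 0.22 (SE 0.05, adjusted p = 0.00481). Both calls were lost without KO replicate 1 (adjusted p of 0.344 for Arrdc3 and 0.147 for Ypel5), without KO replicate 2 (0.317 and 0.134) and with cyclic loess (0.205 and 0.986), where the Arrdc3 value turned to -0.092. The Arrdc3 call was also lost with equal totals (0.181).

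At the boundary of 1000 bp, the last peaks inside were those of Gapvd1 at 988 bp and Trio at 984 bp. Gapvd1 had 124 and 94.2 in KO and 131 and 184 in WT, and Trio 145 and 149 in KO and 185 and 200 in WT. The first peaks outside were those of Yy1 at 1001 bp and Zbtb2 at 1002 bp. Yy1 had 465 and 448 in KO and 282 and 422 in WT, and Zbtb2 641 and 605 in KO and 515 and 484 in WT. At all 4 peaks the KO and WT values were separate, with KO below WT at the inner pair and above it at the outer pair. Over all peaks such separation was found at 27.3% (KO below) and 28.0% (KO above). In limma Gapvd1 (log2 fold change -0.52, adjusted p = 0.108), Trio (-0.39, 0.139) and Yy1 (0.40, 0.0665) were not called. Zbtb2 was called (0.32, 0.0454), but not with equal totals (0.0999), with cyclic loess (0.215) or without the mean-variance trend (0.264).

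CpG island peaks were also counted, by nearest TSS, in 5 lists of genes grouped by function, to be read against the 6.43% higher and 8.7% lower of all CpG island peaks. Among regulators of CpG island chromatin, 18 peaks at 13 genes had 3 lower, none higher and 15 not called, with a median of -0.27. With median centring 2 of these were higher and 2 lower, at a median of -0.20. The Ezh1 peak, at the gene for a methyltransferase of Polycomb repressive complex 2, had 113 and 113 in KO and 182 and 184 in WT (log2 fold change -0.69, SE 0.18, adjusted p = 0.0154). The KO libraries agreed closely and lay below both WT libraries. The Jarid2 peak, at the gene for a cofactor of the same complex, had 238 and 323 in KO and 352 and 415 in WT (-0.46, SE 0.14, adjusted p = 0.0398). The call at Bcor, a corepressor of a Polycomb repressive complex 1 variant, rested on a weak peak 7984 bp from the TSS. That peak had 51.2 and 47.1 in KO and 70.4 and 121 in WT (-0.90, SE 0.27, adjusted p = 0.0358). Over all 111 peaks of these genes 6 were higher and 11 lower, with a median of -0.10.

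Among myeloid transcription factor genes, 14 peaks at 13 genes had 3 lower, none higher and 11 not called, with a median of -0.31, against -0.04 over all 223 peaks of these genes. With median centring 1 was higher and 2 lower. Runx3, a Runt family factor, had the largest decrease, in an intron 1 peak 31718 bp from the TSS (chr4:134708124-134708432). The Runx3 signal was 41.5 and 36.0 in KO and 74.8 and 107 in WT, with separate groups and a log2 fold change of -1.19 (SE 0.28, adjusted p = 0.00733). Gfi1, a repressor needed for neutrophil differentiation, had 83.0 and 58.9 in KO and 122 and 109 in WT (-0.71, SE 0.23, adjusted p = 0.0496). Elf4, an ETS family factor, had an intron 1 peak 9192 bp from the TSS, with 194 and 182 in KO and 264 and 274 in WT (-0.51, SE 0.15, adjusted p = 0.0271). WT was higher in each library for all 3. Bach1 was the uncalled peak of lowest p in this list, at 829 and 816 in KO and 701.5 and 671 in WT (0.26, adjusted p = 0.0592).

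Immediate early genes, which are induced rapidly by stimulation, had 25 CpG island peaks at 22 genes, with 2 higher, 2 lower and 21 not called and a median of -0.15. The higher ones were Nr4a3, given above, and Dusp6, which encodes a phosphatase of ERK kinases and had 676 and 657.5 in KO and 512 and 543 in WT (0.34, SE 0.10, adjusted p = 0.0285). The lower ones were Zfp36l2, given above, and a peak 10041 bp upstream of Fosb, an AP-1 subunit gene, with 125 and 142 in KO and 194 and 200 in WT (-0.56, SE 0.17, adjusted p = 0.0368). The groups were separate at both. The near peak of Fos had 953 and 910 in KO and 1085 and 1115 in WT and did not pass with the signal as deposited (-0.24, adjusted p = 0.0508). The Fos peak was called lower with equal totals (-0.29, adjusted p = 0.0211) and with cyclic loess (-0.39, 0.00428), but not with median centring (-0.17, 0.15). Over all 256 peaks of these genes 11 were higher and 14 lower, with a median of -0.06.

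Imprinted genes had 58 peaks of all classes, 3 of them CpG island peaks outside promoters, and developmental genes known as Polycomb targets had 31, with 5 of them. Of the 3 nearest imprinted genes, an intergenic peak 22111 bp from the TSS of the cadherin gene Cdh15 fell. It had 159 and 152 in KO and 236 and 239 in WT (-0.61, SE 0.16, adjusted p = 0.0153). Those of Ppp1r9a (-0.13) and Herc3 (-0.02) did not pass, and their signs turned under some settings. The 5 peaks nearest the homeobox genes Meis1, Lhx1, Dlx2 and Hoxa7 lay 2655 to 147318 bp from the TSS, so none was at a gene start. They were not called, 4 of them had a mean signal below 100, and the log2 fold changes of the 5 lay between -0.58 and -0.16.

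None of the 11 called peaks of these lists passed without the mean-variance trend, and each lost its call when at least 1 of the KO libraries was left out. Without KO replicate 1 the adjusted p was 0.0925 for Zfp36l2, 0.0974 for Gfi1, 0.114 for Nr4a3, 0.138 for Cdh15, 0.152 for Bcor, 0.154 for Ezh1, 0.181 for Elf4, 0.327 for Dusp6, 0.375 for Fosb and 0.6 for Jarid2. Without KO replicate 2 the Runx3 value was 0.113. Leaving out a WT library ended the calls of Gfi1 (0.0646 without replicate 1), Jarid2 (0.0967 without replicate 2) and Bcor (0.228 without replicate 2). Median centring ended the calls of Fosb (0.0575), Gfi1 (0.0709) and Jarid2 (0.0723). Equal totals ended that of Dusp6 (0.0666), and cyclic loess those of Fosb (0.0591), Bcor (0.0777), Nr4a3 (0.102), Gfi1 (0.104) and Dusp6 (0.162). With 1 KO library left, standard errors rose, for example from 0.18 to 0.26 at Ezh1. Without KO replicate 1 and then without KO replicate 2, the log2 fold change was -0.69 and -0.69 for Ezh1. It was 0.32 and 0.36 for Dusp6, -0.31 and -0.33 for Zfp36l2, but -0.24 and -0.68 for Jarid2.

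Genes with several CpG island peaks outside promoters were few. Tex14 and Nfia each had 4, and 8 others had 3. At Nfia, a nuclear factor I gene, 1 of the 4 rose (log2 fold change 0.36), and the 4 ranged from -0.83 to 0.36. At Rnf220, a ubiquitin ligase gene, the 3 peaks ranged from -0.79 to -0.68 with none called, at signals of 54.7 to 74.6. Chd7 likewise had 1 of 3 that rose, with values from -0.22 to 0.38, and so did Zfp619 (0.06 to 0.30). In the other direction, 1 of 3 fell at each of BC061194 (-0.80 to -0.13), Bcor (-0.90 to -0.31) and Mir6417 (-0.86 to -0.19).

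Peaks around the called CpG island peaks were counted within 5000 bp. Of the 130 lower CpG island peaks 27 had such a neighbour, and 3 of these neighbours were lower and none higher, with a median of -0.33. Of these 27 neighbours 6 were themselves CpG island peaks outside promoters. Of the 96 higher ones 19 had a neighbour, of which 2 were higher and none lower, with a median of 0.29. Over the neighbours of all CpG island peaks 4.19% were higher and 5.39% lower, and over those of all peaks 6.2% and 4.53%. Among the 50 far peaks that fell, 13 had a nearest gene with an annotated promoter peak, and at those promoters 2 were lower, 1 higher and 10 not called. Among the 23 far peaks that rose, 8 did, with 2 higher and none lower. By chromosome, chromosome 11 had 17 lower and 3 higher CpG island peaks of 120, and 145 lower and 58 higher of all its 1491 peaks. Chromosome 13 differed between the classes in the lower calls and little in the share higher: its 67 CpG island peaks had 10 lower and 6 higher. Of all its 1184 peaks 25 were lower and 115 higher. Chromosome 6 had 11 higher and 1 lower of 80 CpG island peaks, and 88 higher and 26 lower of all its 1384 peaks. These 3 chromosomes were picked after the values of all 20 were seen.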

How the data were processed

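The data are ATAC-seq of 2 KO and 2 WT libraries of sorted mouse neutrophils. Per the submitters' processing notes, the build was mm9 and the tools were MACS2 2.1.0, DiffBind, HOMER, BWA, Trimmomatic 0.32, bcl2fastq 2.16.0 and R 3.1.1. Parameters, read shifting and the consensus rule were not given in the sources used here. The authors deposited, per the file headers, a normalised signal for each library and peak with HOMER-style annotation. The table used here has no genotype mean columns, so genotypes were compared from the library values. Deposited widths exceed end minus start by 2. All per-library columns matched a label.

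Log2(signal + 1), which understates changes of weak peaks, was tested with limma 3.58.1 in R 4.3.3 (empirical Bayes with a mean-variance trend, genotype only, two-sided, Benjamini-Hochberg over 23595 peaks, adjusted p below 0.05). No peak had a mean signal of 1 or less, the minimum set. The fit was run on simulated data with a chosen spread and increases only, which does not test the calls made here. Named peaks were the 8 called peaks of lowest p with separate groups per direction and distance class, the 5 strongest, the 3 widest, 2 on each side of the boundary, called and up to 4 other peaks per gene list, genes with 3 or more peaks and peaks within 1000 kb of Morrbid. The peaks, lists and rules were chosen with earlier results of these data known, and the signal ranges and the CG ratio boundary after seeing the data. Promoter sequences are from RefSeq, GRCm38.p6. Figures were drawn with matplotlib 3.10.9.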

Additional observations from a re-analysis of the deposited data

How the results depend on the processing

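Counts of called CpG island peaks depended on the variance model, the scaling and single libraries, and the cause was not tested. Against 96 higher and 130 lower, median centring gave 167 and 86 (near 118 and 52, far 49 higher), equal totals gave 53 higher (near 42, far 11), and cyclic loess gave 22 higher (near 19, far 3) with 32 far lower. Without the mean-variance trend the counts were 0 higher and 2 lower (near 0 and 1, far 0 and 1), and 0 higher and 22 lower over all peaks. With the boundary at 5000 bp, 14 far peaks were higher. Leaving out each library in turn gave 14 to 171 higher and 21 to 289 lower in all, 13 to 121 and 15 to 180 near, and 1 to 50 and 6 to 109 far.

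The median log2 fold change moved under median centring to 0.0076 (all CpG island peaks), 0.031 (near), -0.053 (far) and 0.23 (signal of 800 or more). Equal totals gave -0.18 (far) and 0.11 (800 or more), and cyclic loess -0.0056 (800 or more). With a library left out, the far median ran from -0.14 to -0.062 (without WT replicate 2), the median of peaks below 100 from -0.55 (without WT replicate 1) to -0.34, and that of peaks of 800 or more ran from 0.13 to 0.18. The value for Btg1 was -0.28 with cyclic loess (adjusted p = 0.000109) and 0.042 with median centring, and ran from -0.056 to 0.0059 with a library left out. It turned for Ell2 with equal totals (-0.054) and cyclic loess (-0.22), and ran from -0.12 to 0.12 with a library left out. For Herc3 the value was 0.047 with median centring and ran from -0.093 to 0.055 with a library left out. For Ppp1r9a the left-out libraries gave -0.36 to 0.097 and for Klf10 -0.0028 to 0.36. With cyclic loess the sign turned for Arrdc3 (-0.092), Csf2ra (-0.18) and Nr3c1 (-0.096).

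The replicate block gave 116 higher and 155 lower. Deviations of same-numbered libraries correlated at -0.0392, so the numbers do not establish pairing. A pseudocount of 5 gave 96 and 132, and a filter on a mean signal above 50 gave 103 and 129. Of the 70 named peaks, 48 were called. The planned count test was not run, because the deposited signal was kept as signal. With 1 step as 1 read, the weakest CpG island peak of a library held 14 to 24 reads, and 2 libraries a group limit the precision of every value.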
